A study of Oryza sativa with 6 samples.

Results

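The loci described here had higher transcript signal in Hg-treated than in control rice roots after short-term exposure and lower signal after long-term exposure. They were selected on the array ratios themselves. A locus, as the Rice Annotation Project numbers it, was taken from the first 12 characters of a probe name and represented by its brightest probe. S and L denote the means, over the 3 short-term and the 3 long-term arrays, of the log2 ratio of Hg over control signal. Members had S of at least 1 and L of at most -1, which is at least 2-fold above and then at least 2-fold below control. A processed signal of at least 100 was required in some channel of some array. Of 29690 loci on the array, 21833 passed the signal minimum and 89 met both thresholds. Loci that the study lists as cell wall genes, transporters, phytohormone genes, protein kinases, transcription factors, metallothioneins or aquaporins were left out. This removed 4 loci and left 85 members. The kinase and transcription factor lists were held only in part, so members of families beyond the held part may remain.

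Both exposures used roots of 6-day-old seedlings of the rice cultivar TN-67, and the study's methods name root tips as the RNA source. Hg-treated seedlings received 25 µM Hg by the paper (the sample labels give 25 mM), and control seedlings received water. Short-term RNA was pooled from 1 h and 3 h of treatment, and long-term RNA was taken at 24 h. Each exposure had 3 biological replicates, with 1 array of 2 dyes each, Hg RNA in Cy5 and control RNA in Cy3. The dyes were never swapped, and any dye bias of a probe has the same sign on all 6 arrays. No genotype other than the cultivar is given, and whether the exposures shared control RNA is not stated. Long-term arrays all lay on 1 slide that held no short-term array, so slide and exposure cannot be told apart. In control RNA, the root silicon transporter gene OsNIP2;1 (Os02g0745100) gave signals of 11980 to 28690, and the root markers Os01g0503400 and Os02g0131800 gave 103 to 186 and 196 to 1051. A chlorophyll a/b binding protein gene (Os03g0592500), a marker of green tissue, gave 2053 to 2955, and the shoot marker Os05g0347400 gave 135 to 498. All 5 were well above background on all 6 arrays, so root markers were not uniformly the brighter ones. In bulk tissue, fewer cells of a type and less RNA per cell cannot be told apart.

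Mercury ions bind thiol groups of proteins, displace other metals and bring about oxidative stress, and the root is the first organ to meet them. Stress responses of plants usually include a first wave of transcripts that appears soon after the stimulus and declines while the stress continues. Transcripts that not only decline but pass below the level of untreated tissue are a different class, and they are the subject here.

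Many members shared a probe identifier. The probe names of 34 of the 85 carried the same expressed sequence tag identifier (CI330756), and the loci they name lie on 11 chromosomes. Another identifier was shared by 2 members (Os06g0344100 and Os12g0593700), and each of the other 49 had one that no other member shared. That of Os05g0380500 was on 3 probes of the array, for 3 loci with enough signal, of which 1 met both thresholds. The array held 48 probes with the first identifier, for 48 loci, between rows 15 and 515 of 532. Of these 48 loci, 47 met both thresholds, 34 of them with enough signal and 13 below the signal minimum. The median log2 ratio over the 48 probes was 1.77, 1.09 and 1.91 on the short-term arrays. At long-term exposure it was -1.94, -1.77 and -1.90. The SD among the 48 probes of an array lay between 0.27 and 0.62. Their signals, printed here and below as deposited and without scaling between arrays, were dim: the median Hg signal was 87.7, 100.5 and 86.6 at short-term and 10.2, 15.4 and 13.8 at long-term exposure. Median control signals were 24.6, 46.5 and 21.96, then 35.4, 49.4 and 53.4. All 48 spots were well above background in the Hg channel of every short-term array, but only 0, 5 and 4 were in that of the long-term arrays. The probes thus gave 1 similar pattern many times over. Whether they detect the same RNA was not tested, because the files hold no probe sequences. These 34 loci have no description in the study's lists, and they are counted apart below.

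**Figure D1:**
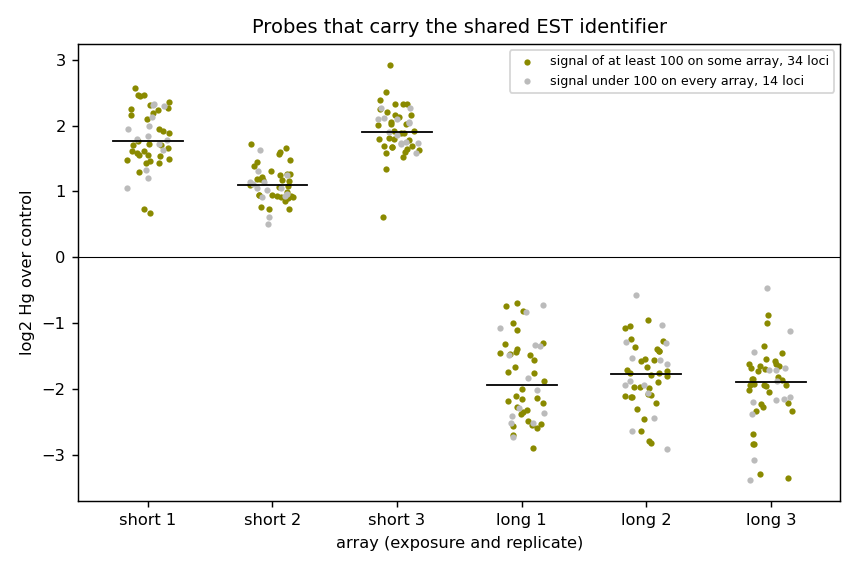
Log2 ratio of Hg over control (vertical axis) of the 48 loci whose probes share an expressed sequence tag identifier, on each of the 6 arrays (horizontal axis); each point is 1 locus and black bars are medians. The 34 loci above and the 14 below the signal minimum lie mostly among each other, except that Os01g0250000, below the minimum, is nearest to 0 on long 2 (-0.57) and long 3 (-0.47); medians of the 48 are between 1.09 and 1.91 at short-term and between -1.94 and -1.77 at long-term exposure.

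The other 51 members are of more use for naming genes. Both channels were well above background on at least 2 of the 3 arrays of each exposure for 36 of them, called measured below, and for 0 of the 34 with the shared identifier. Probes of 35 of the 51 are labelled mRNA: 31 span coding sequence and 3′ UTR, 3 lie in a UTR and 1 spans 5′ UTR and coding sequence. The median S of the 51 was 1.75 (range 1.01 to 5.50) and the median L was -1.35 (range -3.14 to -1.004). In the measured 36, the median S was 1.54 and the median L was -1.31. These values follow from the rule. All 36 had 3 short-term arrays above 0 and 3 long-term arrays below 0, and in 12 of them every array was also past its 2-fold threshold. No share over all loci is given beside these counts, so nothing is read from them. Short 2 and short 3 shared a slide and short 1 lay on another. Array short 2 was the lowest of the short-term arrays in 24 of the 36, and its median ratio over them was 1.17, against 1.46 on short 1 and 2.10 on short 3. Medians on the long-term arrays were -1.22, -1.48 and -1.33. Over all loci with enough signal, the array medians were between -0.13 and -0.05.

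**Figure D2:**
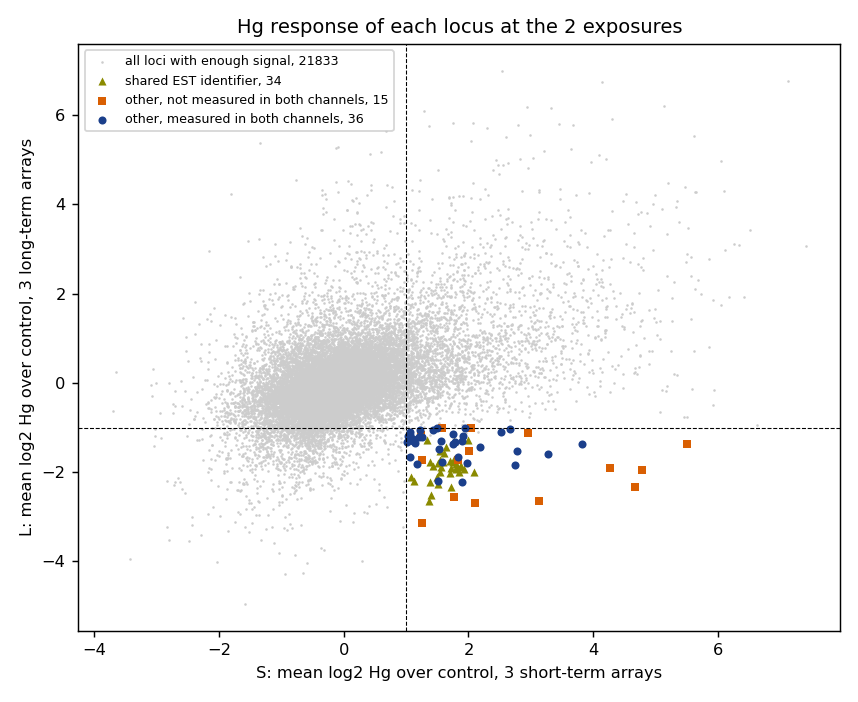
Mean log2 ratio of Hg over control on the short-term arrays (S, horizontal axis) against that on the long-term arrays (L, vertical axis), with dashed lines at the thresholds of 1 and -1. Grey points are the 21833 loci with enough signal; the 34 members with the shared identifier form a tight cluster, and the 36 measured members and 15 others spread along both thresholds.

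Many members sat close to a threshold. Among the 51, S was under 1.25 in 16 and L was above -1.25 in 18. The members just inside the S threshold were Os01g0716800, an endonuclease/exonuclease/phosphatase family gene (S = 1.01), and Os04g0108900 (S = 1.04). Just outside were Os06g0564400 (S = 0.97, L = -2.19) and Os03g0422600 (S = 0.96, L = -1.03). On the L side, Os03g0183500 (L = -1.004) and Os05g0380500 (L = -1.01) were inside, while Os01g0865400 (S = 1.28, L = -0.997) and Os02g0703300 (S = 1.03, L = -0.98) were outside. In limma's moderated test over all loci, with at least 2-fold change and Benjamini-Hochberg adjustment, 84 of the 85 members were called up at short-term exposure, where 11.6% of all loci tested were. At long-term exposure, 82 were called down, against 6.02% of all loci. Both calls together held for 81 members and for 0.39% of all loci, and the rule thresholds alone were met by 0.408% of loci. The difference between exposures was called negative for all 85, beside 10.1% of loci. Members were chosen on these same contrasts, so nothing is read from their counts.

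Loci were also read on arrays that a choice had not used. The rule was applied again without replicate 1 of both exposures, and the loci it chose were then read on those 2 arrays. Of 58 loci chosen outside the shared identifier, 25 (43.1%) were at least 2-fold above control on short 1 and at least 2-fold below it on long 1, beside 0.411% of all loci. Their medians there were 1.41 and -1.06. With replicate 2 held out, 26 of 49 (53.1%) passed both thresholds on the unused arrays, beside 0.334% of all loci, with medians of 1.12 and -1.48. With replicate 3 held out, 31 of 47 (66.0%) did, beside 0.529%, with medians of 2.21 and -1.38. The direction was kept on both unused arrays by 55 of 58, 46 of 49 and 44 of 47 loci, whereas 14.2% to 15.4% of all loci had these signs. Loci with the shared identifier kept it in 29 of 29, 17 of 17 and 29 of 29 cases. Each reading rests on 1 array per exposure and no test was made of it. Long-term arrays used in the choice and held out share a slide, and so do short 2 and short 3, so that only short 1 was read apart from the slides used to choose.

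The set depended on how the signals were processed. With the normal-exponential (normexp) background correction and loess normalization of raw signals, 15 loci met the rule, of which 12 were among the 85. With raw median signals minus local background, 54 loci did, of which 22 were among them. The first setting changes background correction and normalization together, and their parts were not tested. Its background correction adds an offset of 50 to both channels, which draws the ratios of dim spots towards 0. How far this decided which members stayed was not tested. All 85 still had S above 0 and L below 0 with the first of these settings and 84 did with the second. With the first, S was smaller than before in 76 of the 85 and L was nearer to 0 in all 85. With the second, S was smaller in 63 and L was nearer to 0 in 74, so some sizes grew: S of Os04g0107600 was 3.33 and L of Os07g0526600 was -3.03. The 12 members that met the rule under normexp were all measured ones, and these loci, picked out after their values were seen, are Os04g0639000, Os04g0107600, Os10g0391400, Os01g0882000, Os05g0474700, Os03g0118800, Os01g0882100, Os05g0320800, Os08g0141400, Os09g0509700, Os06g0729400 and Os10g0455100. Of them, 7 met both thresholds under all 7 alternatives for the source, background, normalization and averaging of the values. They also did so whichever array was left out. The log ratios and the value table as deposited are among these alternatives and repeat the main values. The same 7 loci were those that met both thresholds with normexp and with median signals minus background. The other alternatives thus removed none of them and add little to this count. These 7 are Os04g0639000, Os04g0107600, Os10g0391400, Os01g0882000, Os05g0474700, Os03g0118800 and Os09g0509700.

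**Figure D3:**
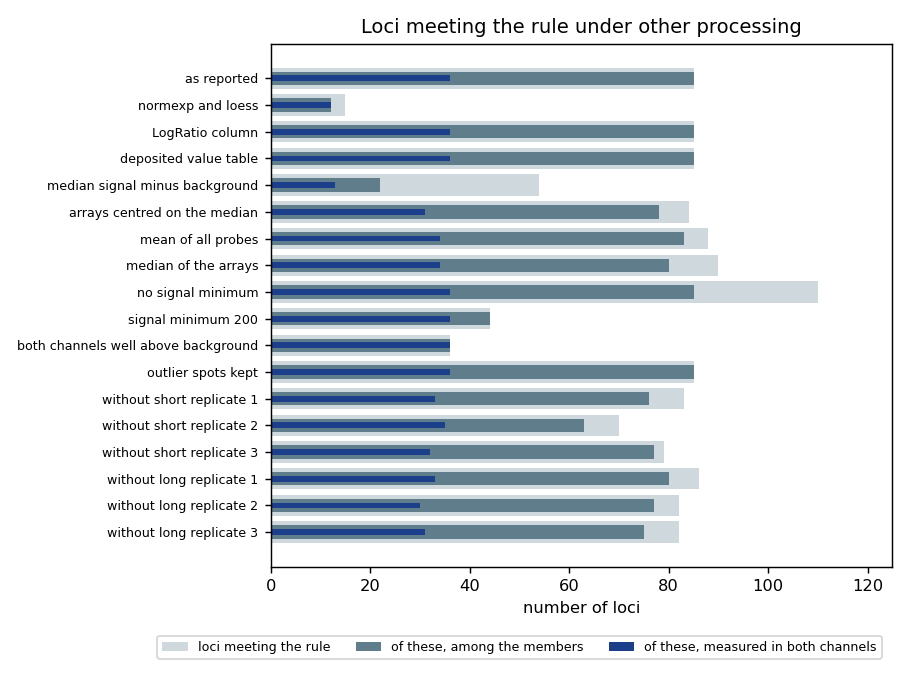
Number of loci meeting the rule (horizontal axis) under each processing alternative (vertical axis); wide pale bars count all such loci, medium bars those among the 85 members, and narrow dark bars the measured ones among them. Counts fall to 15 with normexp and loess together, to 54 with median signals minus background and to 44 with a signal minimum of 200, and lie between 70 and 110 with the other settings except that only the 36 measured members stay when both channels must be well above background.

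Among the described members, the arginine decarboxylase gene Os04g0107600 stood out for agreement between probes. Arginine decarboxylase makes agmatine from arginine, the first step of a plant route to putrescine and other polyamines. Its log2 ratios were 2.91, 2.35 and 2.95 on the short-term arrays. The long-term ratios were -1.81, -2.43 and -1.29. It was therefore 6.67-fold above control and then 3.59-fold below it, and the groups were far apart. Hg signals were 7318, 8380 and 5947 at short-term and 494, 331 and 761 at long-term exposure. Control signals differed less, with 971, 1640 and 771 followed by 1733, 1784 and 1863. A further probe of the same locus, which the rule did not use, gave S = 2.62 and L = -1.98.

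Os04g0639000, which has no description in the sources used here, was read by a probe in a UTR. It read 2.09, 1.42 and 2.19, then -2.26, -2.48 and -1.95. It was 3.73-fold above and then 4.68-fold below control, with an SD of 0.42 and 0.27 on the log2 scale (n = 3 each). The signal of Hg-treated roots was 13094, 19898 and 12914 at short-term and 1003, 1170 and 1740 at long-term exposure. In control roots it was 3074, 7442 and 2823, then 4791, 6518 and 6710. The control ranges of the exposures overlapped and the Hg ranges did not.

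Os10g0391400, also without a description, had ratios of 1.34, 1.54 and 3.03 and then -1.85, -1.72 and -1.83. The long-term arrays lay within 0.07 (SD) of each other, while short 3 was well above the other short-term arrays. Os07g0551500 gave 2.16, 1.34 and 2.01, then -1.42, -2.15 and -1.43. In this locus the control signal, too, was lower at long-term exposure, by 1.01 on the log2 scale after the arrays were brought to a common scale.

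Os05g0474700 had a smaller S of 1.51 ± 0.56 and a deep L of -2.20 ± 0.68 (SD, n = 3). Its arrays read 1.20, 1.17 and 2.15, and then -1.43, -2.72 and -2.44. For Os03g0118800 the ratios were 1.59, 1.10 and 1.90, followed by -1.23, -1.64 and -1.56. Os08g0167300 varied most among these undescribed loci at short-term exposure, with ratios of 2.75, 1.53 and 4.05. Its long-term ratios were -1.22, -1.97 and -1.42, and 2 of the 3 arrays at each exposure had the weaker channel well above background. None of these loci is described in the sources used here.

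High early ratios were found in a peptidase and an acid phosphatase gene. The aspartic peptidase family gene Os01g0937000, of a class of enzymes that cleave proteins at an active site of aspartate residues, gave 3.16, 3.02 and 3.67. At long-term exposure it read -1.65, -2.05 and -1.10. This was 9.73-fold above and 3.04-fold below control. Hg signals were 2340, 4143 and 2681 at short-term and 68.9, 60.0 and 87.0 at long-term exposure. The class B acid phosphatase gene Os07g0681200 encodes a member of a family that includes plant vegetative storage proteins. It had ratios of 3.66, 3.69 and 4.11, a 14.1-fold excess over control with little spread (SD 0.25). Its long-term ratios were -0.89, -2.19 and -1.03. In these 2 genes the control signal was also lower at long-term than at short-term exposure, by 1.14 and 1.15 on the log2 scale.

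Os01g0716800, of the endonuclease/exonuclease/phosphatase family, had short-term ratios of 1.03, 0.65 and 1.35. The long-term ratios of this locus were -1.88, -0.84 and -1.28. Its other probe gave S = 1.52 and L = -0.33, so the probes differed in whether the locus met the rule. The group of described kinases and phosphatases held only this gene and Os07g0681200, without a kinase, since listed kinases had been left out.

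Calcium and redox functions were represented by 1 gene each. Os07g0633400 encodes a protein with an IQ region, a short motif that binds calmodulin, the calcium sensor. Its ratios were 1.74, 1.40 and 2.09, then -0.43, -1.54 and -1.48. The Hg signals of this gene were 250, 556 and 408 and then 254, 221 and 225. They overlapped as deposited but not after the arrays were brought to a common scale, where the mean log2 level was 8.93 and then 7.52. The control signals were 74.7, 211 and 95.7, then 341, 642 and 625, with no overlap before or after scaling. Os08g0141400 encodes an oxidoreductase of the FAD-dependent pyridine nucleotide-disulphide class, whose members move electrons between NAD(P)H and disulphides or other acceptors. It read 1.80, 1.70 and 2.24 and then -1.21, -1.20 and -1.14. The long-term SD of 0.04 was the smallest of the 85.

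A defence gene and a lipid gene had high ratios but weak signals. Os11g0214400, of the plant disease resistance response protein family, gave 3.43, 2.43 and 3.55 and then -3.36, -1.998 and -2.61. Its Hg signals were 156, 166 and 181 in the short-term group and 5.04, 11.6 and 4.79 in the long-term group, where no array was well above background. For a floored ratio, a signal under the lowest one well above background in that channel of its array was raised to that level. By this ratio the control signal was 5.35-fold above the Hg signal at long-term exposure. Signals above that level were used as read, even if not well above background, so a floored ratio is not a strict lower bound. Os07g0526600 has an esterase/lipase/thioesterase domain, found in enzymes that split ester bonds. Its short-term ratios were 5.47, 5.80 and 5.22, but its control signals were 6.01, 5.81 and 10.4, never well above background. By the floored ratio, the short-term Hg signal was 44.5-fold above control. At long-term exposure neither channel was well above background on any array, so L of this gene (-1.37) has no reading as a fold.

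The remaining described members had varied roles. Os06g0729400 is annotated as a gibberellin-regulated protein precursor, of a family of small cysteine-rich secreted proteins. Its ratios were 1.01, 1.18 and 1.21 and then -0.98, -1.47 and -1.59. Os02g0639300 has a CBS domain, a module that binds adenosine nucleotides in many proteins. It gave 2.20, 2.42 and 2.96, then -1.12, -1.18 and -1.01, so that every array was past its threshold.

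Os09g0509700 carries the description Hd1 in the study's list, with no further detail. It read 1.24, 1.04 and 1.24 and then -1.99, -1.77 and -1.69. Os08g0367000, of the En/Spm-like transposon protein family, gave 2.47, 1.74 and 2.36, then -1.12, -1.66 and -1.50. Proteins of this annotation derive from mobile elements. Os03g0138000 has a TPR-like domain, a helical repeat that mediates protein binding. The ratios of this gene had the least short-term spread of all members (SD 0.03), at 1.03, 1.06 and 1.09, followed by -1.09, -0.93 and -1.24.

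Of the 18 described members, 5 (27.8%) had no known function, beside 33.5% of the short-term upregulated loci in the study's list. The 5 are Os02g0453500 and Os02g0210000 (conserved hypothetical), Os05g0320800 and Os11g0118200 (hypothetical) and Os06g0344100 (no hit). Their S ran from 1.11 to 1.89 and their L from -1.31 to -1.01. Os05g0320800 was bright, with Hg signals of 2214, 2677 and 2255 and then 976, 1339 and 1398. In control roots the signals of this locus were 949, 1254 and 922, then 1929, 3108 and 3748. Both channels separated the exposures, in opposite directions. No description was held for 67 members, 20 of the measured ones among them. Descriptions came from the study's list of Hg-responsive genes. All 18 described members were in its short-term upregulated part of 1263 loci, and the 67 were not found in that part.

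**Figure D4:**
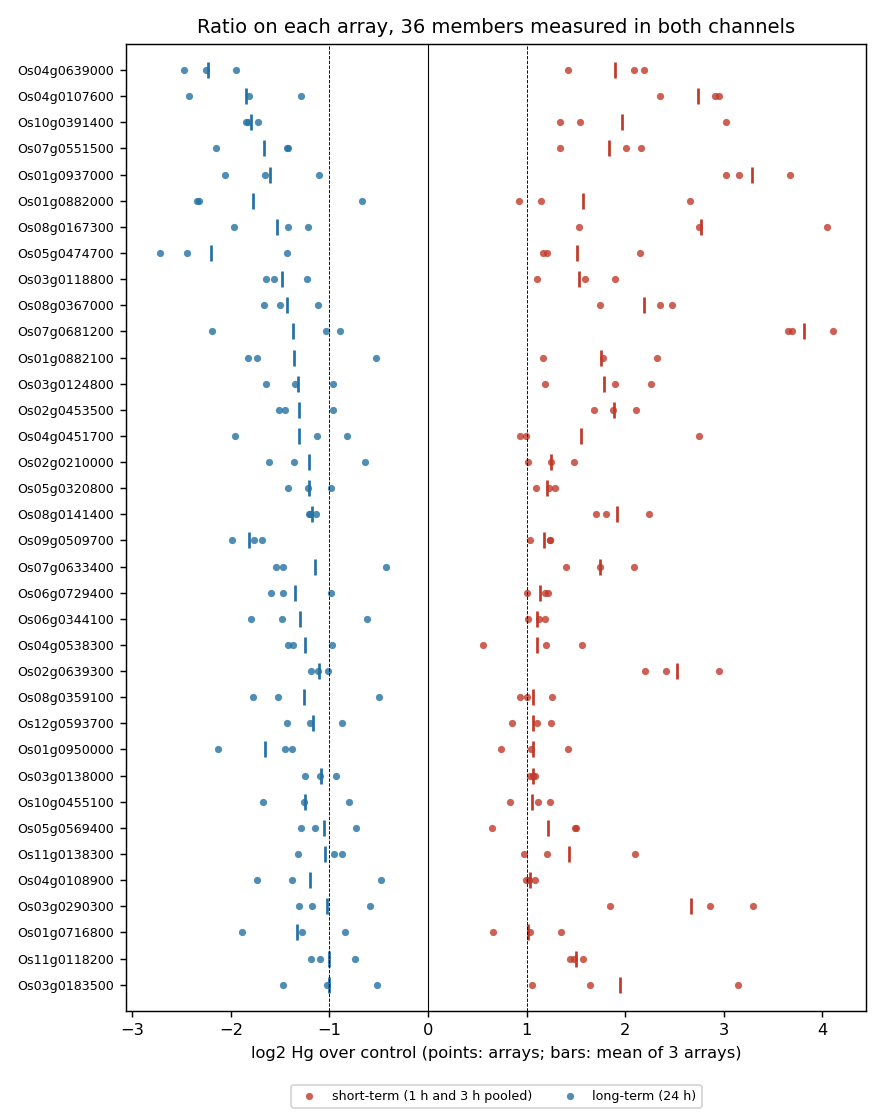
Log2 ratio of Hg over control (horizontal axis) of the 36 measured members (vertical axis), in order of the smaller of S and -L from the top; each point is 1 array, vertical bars are means of 3 arrays and dashed lines mark 1 and -1. Points of the exposures lie on opposite sides of 0 for every locus, as the choice of members required of the means, and 12 loci have all 6 arrays past the dashed lines.

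Os01g0882000 and Os01g0882100, adjacent locus numbers on chromosome 1, formed the only pair of neighbouring members. Os01g0882000 read 1.14, 0.92 and 2.66, then -0.66, -2.34 and -2.32. Os01g0882100 read 1.78, 1.16 and 2.32, then -0.53, -1.83 and -1.74. In both, short 3 was the highest array and long 1 was the nearest to 0. Of the 8 other loci within 500 locus numbers, 5 had enough signal and 0 of the 8 met both thresholds. The nearest one by number, Os01g0881900, had S = 0.41 and L = 0.58. Whether the pair shares probe signal was not tested. Control roots had less Os01g0882100 signal at long-term exposure (285, 852 and 1153) than at short-term exposure (1436, 2746 and 1265), and the ranges did not overlap.

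Only 4 members had a further probe, and each of these 4 probes had S above 0 and L below 0. Both thresholds were met by 2 of them, those of Os04g0107600 and Os02g0167600 (S = 1.04, L = -1.86). The further probe of Os04g0108900 gave S = 0.76 and L = -0.30.

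Outside the shared identifier, 15 members were not measured in both channels. Os09g0555800, without a description, had the largest excess of control signal at long-term over short-term exposure. Its ratios were 6.04, 3.64 and 4.36, then -3.45, -2.36 and -1.16. Control signals of 7.31, 60.7 and 34.1 at short-term exposure stood against 133, 148 and 107 at long-term exposure, but only 1 short-term array had them well above background. Os12g0168100 had ratios of 5.72, 2.55 and 4.55 and then -0.94, -2.25 and -2.52. Its Hg signals of 972, 1650 and 1377 were followed by 25.1, 10.7 and 9.82, none of the latter well above background. Control was 3.74-fold above Hg there with or without the floor, a value that rests on undetected Hg signal.

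Os06g0141600 had short-term ratios of 2.39, 0.18 and 1.20 and long-term ratios of -3.44, -2.08 and -3.90, the latter against Hg signals well above background on 0 arrays. Its short-term SD of 1.11 was close to its mean of 1.26, and limma did not call it at that exposure. Long-term control signal, well above background on 2 of 3 arrays, was 7.10-fold above Hg signal by the floored ratio. In Os07g0457800 and Os05g0380500, array long 2 was above 0 (0.40 and 0.35), and these were the 2 members of the 85 with an array against the direction of the mean. The Hg signal of both was well above background on no long-term array, nor was the control signal of Os05g0380500. Of the 51, 9 had Hg signal well above background on no long-term array. A floored ratio with control measured on at least 2 long-term arrays, and all 3 arrays below 0, could be given for 4 of them, between 3.74-fold and 7.10-fold. Another 28 floored ratios came from the shared identifier, between 2.87-fold and 5.69-fold.

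The ratio of an exposure rests on both channels, so the change from short-term to long-term exposure was split between them. Signals were first brought to a common distribution of average intensity, which leaves each log ratio as it was. The measured Hg signal of all 85 members was at least 2-fold lower at long-term than at short-term exposure, and in 37 of them it was well above background on no long-term array. The same held for 17.2% of all loci and for 60.5% of the 2458 loci with S of at least 1 that stayed above -1. The median change of Hg signal was -2.75 on the log2 scale in the 36 measured members. It was -3.22 in the 51, and -2.78 in the 42 of them with Hg signal well above background on some long-term array. Only 6 of the 34 with the shared identifier had such a signal, so no median is given for them. Over all loci the median was -0.03, and over the 2458 loci it was -1.30.

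Control signal differed less between the exposures. Its median change was 0.35 in the measured members, 0.19 in the 51 and -0.12 in the 34 with the shared identifier, against -0.04 over all loci and -0.17 over the 2458. Of the 48 probes with that identifier, only 13 on short 1 and 1 on short 3 had control well above background. The -0.12 thus rests largely on undetected short-term signal. Control signal was at least 2-fold higher at long-term exposure in 3 of the 85 (3.53%, beside 4.24% of all loci) and at least 2-fold lower in 8 (9.41%, beside 8.62% of all loci). The 3 that were higher are Os09g0555800 (1.66), Os07g0633400 (1.48) and Os01g0950000 (1.40). Os01g0950000, without a description, had control signals of 85.0, 305 and 133 and then 499, 700 and 750. Its Hg signals of 227, 511 and 273 overlapped with 114, 256 and 288 as deposited but not on the common scale, where the Hg change was -1.32. Among members with Hg signal well above background on some long-term array, the largest differences of Hg signal were those of Os07g0681200 (-6.34) and Os01g0937000 (-6.02). In 83 of the 85 (97.6%), the Hg signal made up the larger part of the change. In these members the changes of both channels summed to below 0, which also held for 52.0% of all loci and for 82.0% of the 2458. For those loci, whose ratio could change either way, the sum does not give the part of the Hg signal. L minus S is at most -2 by the rule, and the split between channels is not free of the rule either. The 34 members with the shared identifier reached the signal minimum only in the short-term Hg channel. So did others, such as Os07g0526600, with short-term Hg signals of 267, 324 and 389. For such members a high short-term Hg signal beside a low control signal was partly set by the choice, and no test was made. How far the split depends on the scaling between arrays is given with the alternatives.

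**Figure D5:**
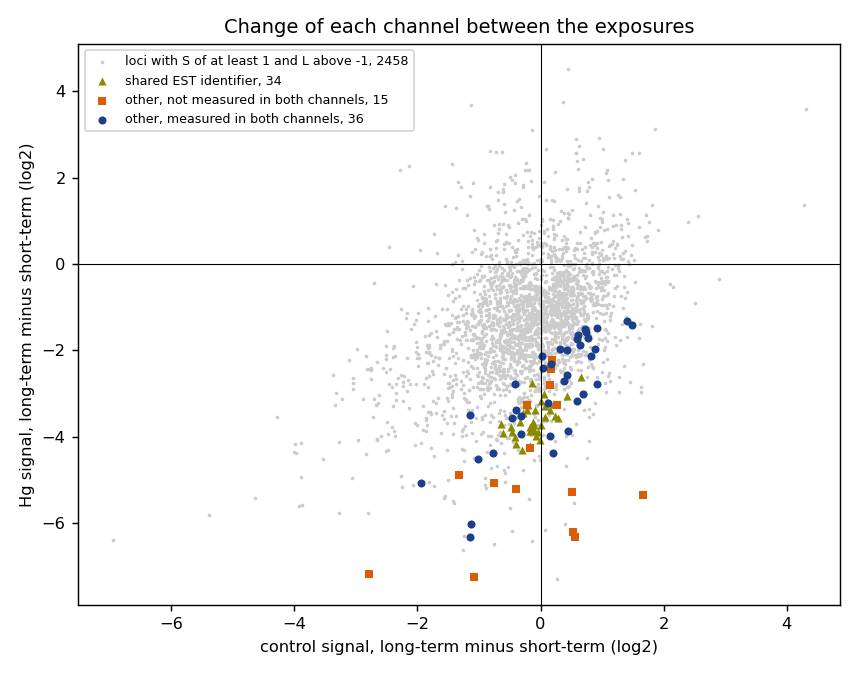
Change of control signal (horizontal axis) against change of Hg signal (vertical axis) from short-term to long-term exposure, log2, after arrays were brought to a common scale. Grey points are the 2458 loci with S of at least 1 and L above -1; all 85 members lie below -1 on the vertical axis, most of them near 0 on the horizontal axis.

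Among the members with large control signals, Os08g0141400 had 3839, 5395 and 2712 in control roots at short-term and 5891, 5907 and 7467 at long-term exposure. These did not overlap as deposited, but they did on the common scale, where control changed by 0.38. Its Hg signals were 13376, 17571 and 12814, then 2544, 2578 and 3395. Os10g0455100, without a description, had ratios of 1.11, 1.24 and 0.83 and then -0.80, -1.67 and -1.26. Its control signals were 1664, 3081 and 2338, then 5061, 5858 and 4650. Os03g0290300, named after its values were seen, had ratios of 2.86, 1.84 and 3.30 and then -0.58, -1.18 and -1.31, so it was strong at short-term exposure and close to the threshold later.

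The 51 members outside the shared identifier were found on all 12 chromosomes, between 2 and 7 on each. Chromosome 1 held 7 of them and 3135 of the 21833 loci with enough signal. Chromosomes 9 and 12 held 2 members each, and 1167 and 1235 of those loci. Locus numbers are those of the array design, and the build behind them is not given in the sources used here.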

How the data were processed

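Rice roots treated with Hg or water were compared on 6 Agilent 2-colour arrays, grouped by exposure from their labels. Per the file headers, the intensity values were deposited as measured by Agilent Feature Extraction, raw (median signals) or after background subtraction, detrending and dye normalization. The log10 ratios in the deposited files come from the same software. The log2 values of the authors' deposited table equalled log2 of processed Cy5 over Cy3 to within 0.001 for at least 99.97% of probes. Flags (such as well above background) were deposited as whole numbers.

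Here log2 of processed Cy5 over Cy3 was used, without control spots and outlier spots and with spots of each probe averaged. Calls came from limma (3.58.1, R 4.3.3) on all 6 arrays, with an adjusted p under 0.05 and a 2-fold change; prior and residual degrees of freedom were 2.46 and 4. Channel levels followed Aquantile normalization. The limma step was tested on simulated data. Raw median signals stood in for mean signals in the normexp alternative (offset 50), since the files hold no means.

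The members, the lists and the alternatives were chosen with earlier results of these data known. Named members were the 10 measured ones with the largest smaller value of S and -L, up to 3 per function group of the study's descriptions, neighbours (locus numbers within 500), loci next to a threshold, 3 each with the largest control rise, the largest Hg fall and the brightest control signal; other loci given with values were named after these were seen, among them Os02g0639300, Os03g0138000, Os11g0118200, Os06g0344100, Os02g0167600, Os07g0457800 and Os03g0290300. The reference table matched no locus by identifier, so promoters were not searched. Precision is limited by the 3 arrays per exposure.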

Additional observations from a re-analysis of the deposited data

Results flagged for a closer look

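Members with all 3 short-term arrays above 0 and all 3 long-term arrays below 0 numbered 83 of 85. Every array of one exposure thus moved opposite to every array of the other in these loci, a difference that the choice of members fixed for the means. The share of all loci with this pattern is not given here, so nothing is read from the 83. The difference between exposures, in limma's test over all loci, was called negative for all 36 measured members, beside 10.1% of all loci. Members were chosen on the same contrast, so nothing is read from this count.

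Another 13 loci with the shared expressed sequence tag identifier met both thresholds although their signals stayed below 100 on every array. They lay outside the set only through the signal minimum.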

How the results depend on the processing

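With normexp and loess, which change background correction and normalization together, 15 loci met the rule (15 without the shared identifier, in place of 51), the median S and L over the 85 members were 0.80 and -0.49, and over the 51 they were 1.19 and -0.63. With median signals minus background, 54 loci met it, with medians of 0.83 and -1.36 over the 85 and L of -1.02 over the 51. A signal minimum of 200 left 44 loci and the demand that both channels be well above background left 36. The median Hg and control changes over the 51 were -3.075 and 0.33 with arrays scaled by the 75th percentile, and -2.525 and 0.88 without scaling, where the medians over all loci were 0.52 and 0.52. Over all loci, limma called 2529 loci up at short-term and 1314 down at long-term exposure, and 2211 negative for the difference. Without the fold threshold these were 6030, 7685 and 5217. The methods' t-test gave 1052 and 810, and normexp with loess gave 532 down at long-term exposure. Leaving out 1 array at a time, the loci meeting the rule numbered 70 to 86 (48 to 54 without the shared identifier). Medians were then taken over the members that still passed the signal minimum on the arrays kept, which can be fewer than the 85 or the 51. Median S lay between 1.46 and 1.92 and median L between -1.69 and -1.58, or between -1.51 and -1.35 without the shared identifier. Short-term arrays do not enter L, so a median L that moved without one reflects a changed set of members or probes. The replicate numbers of the exposures did not pair the arrays (correlations of deviations -0.24, 0.02 and -0.18), and a replicate block gave 2159 negative differences. Slide as a random block gave 2194, but no slide held arrays of both exposures, so this block cannot separate slide from exposure. Of 868 values of named members under the alternatives, 0 changed sign and 64 moved by more than their SD. The 868 include settings that repeat the main values, such as the log ratios and the value table as deposited. Most of the values that moved did so with normexp and loess or with median signals minus background, so 64 of 868 understates how far those settings changed them. The number of arrays and dim signals limit all values.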
